A study of Homo sapiens with 12 samples.

Results

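Of 41755 regions of mRNA that carried an acRIP-seq peak in SW620 cells, 9195 held a peak in all 6 immunoprecipitation libraries, and in 2861 of these the libraries placed the edges of the peak differently. These 2861 boundary-shifting regions are described here. They were selected on peak positions alone: peaks of the 6 lists that overlapped by at least 1 base on the same strand were merged, regions with a peak from every list were kept, and the 6334 regions in which every list held exactly 1 peak with the same start and end were set aside as identical regions. The boundary-shifting regions made up 6.85% of all regions and 31.1% of the shared ones, and their midpoints lay in 2238 protein-coding genes, apart from 265 (9.26%) that lay in no gene, among them the KMT5A start described below. The score of the peaks and the comparison between the groups were not used in the choice.

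SW620 is a human colorectal cancer cell line. The 3 shControl libraries, labelled wild type, came from cells with a control shRNA, and the 3 shNAT10 libraries, labelled NAT10 knockdown, from cells with an shRNA against NAT10. In the methods of the study, shRNAs were delivered by lentivirus to make stable lines, so both groups carried an integrated vector. Which of the NAT10 shRNAs was used for these libraries is not given in the sources used here, and neither is whether replicates came from separate cultures, so p-values measure the spread between these samples, which may be technical. No untreated line without vector was among the lists, and the input libraries were not analysed here. Among 18 markers of intestinal epithelium, 7 had a peak in every library, EPCAM, CDX2, HNF4A and CLDN3 among them, against 1 of 17 markers of blood, endothelial, fibroblast and neural cells, which was MBP. A peak is no measure of the amount of an RNA, and 6 of the 18 epithelial markers, KRT18, KRT20, CDX1, TSPAN8, GPA33 and CLDN7, had no peak in any list. CEACAM5 had 2, 1 and 3 peaks in shControl and 0 in each shNAT10 library, and 7 of the 17 markers of other cells had a peak in at least 1 list.

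N4-acetylcytidine (ac4C) is a cytidine with an acetyl group on its base. NAT10 is the acetyltransferase that writes it on ribosomal RNA, on transfer RNA and, as reported, on messenger RNA, where it has been linked with stability and translation. In acRIP-seq, RNA is broken into fragments, the fragments are pulled down with an antibody against ac4C and sequenced, and stretches with more reads than the background are called as peaks. An edge of such a peak can mark where read coverage stopped passing the caller's limit, and it does not locate an acetylated base. In these lists 6334 shared regions had the same edges in all 6 libraries. At gene ends where only the 3' edge moved, at least 1 library stopped exactly at the RefSeq end in 166 of 347 regions. These regions were chosen with their outermost 3' edge within 100 bases of that end, which favours such a count. What set such edges was not tested.

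Several edges that set the groups apart lay in front of gene starts, and their share was small and even. Of 590 regions with a moving 5' edge near a start and a fixed 3' edge, 15 (2.54%) had it further upstream in every shNAT10 library. Another 15 (2.54%) had it further downstream. The stretches below are shown because all 3 libraries of one group covered the bases in capitals and none of the other group did. They are KMT5A, the region that passed the width test, the regions with a fixed 3' edge and a 5' edge moving within 250 bases of a RefSeq start in which this stretch was at least 30 bases long, and PIK3R2 from the PI3K-AKT pathway that the study examined. They were picked after their values had been seen, and ERBB3, which also met the length, is described without its sequence. The sequences are the RefSeq promoter windows of GRCh38.p14, read 5' to 3' on the strand of the gene, and reach at most 30 bases into the transcript. In KMT5A, HAUS6, CDC6, PHGDH, SKIC8, COLGALT1 and PIK3R2 the capitals were covered in shNAT10, and in IGDCC4, MAU2 and PIAS4 they were covered in shControl.
KMT5A (chr12:123383882-123383980, plus strand): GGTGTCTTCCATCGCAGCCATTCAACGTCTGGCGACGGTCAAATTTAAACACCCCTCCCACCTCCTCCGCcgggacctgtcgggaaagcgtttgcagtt
HAUS6 (chr9:19102973-19103129, minus strand): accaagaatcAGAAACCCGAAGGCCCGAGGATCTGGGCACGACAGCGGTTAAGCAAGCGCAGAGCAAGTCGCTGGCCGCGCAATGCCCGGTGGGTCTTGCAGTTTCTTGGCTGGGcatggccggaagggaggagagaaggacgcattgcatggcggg
CDC6 (chr17:40287629-40287774, plus strand): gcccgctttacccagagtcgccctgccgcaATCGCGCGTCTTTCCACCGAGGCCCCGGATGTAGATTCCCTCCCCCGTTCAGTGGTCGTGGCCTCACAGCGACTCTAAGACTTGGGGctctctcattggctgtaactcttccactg
PHGDH (chr1:119711705-119711890, plus strand): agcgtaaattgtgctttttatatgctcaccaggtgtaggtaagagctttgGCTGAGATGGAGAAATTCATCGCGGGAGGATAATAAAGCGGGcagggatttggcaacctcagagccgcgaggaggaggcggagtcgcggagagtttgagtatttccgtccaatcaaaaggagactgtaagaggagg
SKIC8 (chr15:78299685-78299804, minus strand): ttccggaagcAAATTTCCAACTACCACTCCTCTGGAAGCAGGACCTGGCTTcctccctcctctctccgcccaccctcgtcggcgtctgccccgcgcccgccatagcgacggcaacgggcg
COLGALT1 (chr19:17555584-17555636, plus strand): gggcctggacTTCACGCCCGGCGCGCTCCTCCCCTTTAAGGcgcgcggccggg
PIK3R2 (chr19:18153108-18153192, plus strand): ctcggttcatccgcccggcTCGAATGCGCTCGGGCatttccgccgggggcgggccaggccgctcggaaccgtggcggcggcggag
IGDCC4 (chr15:65422938-65423082, minus strand): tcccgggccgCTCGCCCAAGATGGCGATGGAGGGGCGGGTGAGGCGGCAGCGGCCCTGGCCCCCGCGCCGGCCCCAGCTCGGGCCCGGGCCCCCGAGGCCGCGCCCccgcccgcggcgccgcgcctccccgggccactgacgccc
MAU2 (chr19:19320671-19320754, plus strand): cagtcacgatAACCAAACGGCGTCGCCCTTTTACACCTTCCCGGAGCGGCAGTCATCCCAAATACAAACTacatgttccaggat
PIAS4 (chr19:4007636-4007704, plus strand): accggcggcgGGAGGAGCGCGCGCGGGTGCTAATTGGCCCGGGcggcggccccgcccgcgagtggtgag
In KMT5A the window ends at 250 bases before the start, and the stretch seen in shNAT10 alone ran on past it.

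The KMT5A region was the only 1 of the 2861 (0.035%) in which covered width, the number of genomic bases under the peaks of a library, passed the test between groups. KMT5A encodes a histone lysine methyltransferase. The region lay at chr12:123383773-123384208 on the plus strand, mostly upstream of the RefSeq start at position 123384132. It covered 257, 238 and 246 bases in shControl 1, 2 and 3 and 436 bases in each of the 3 shNAT10 libraries. All shNAT10 libraries lay above all shControl libraries, and the whole difference was at the 5' edge, since the 3' edge was the same in all 6. The log2 difference, shNAT10 minus shControl, was 0.82 ± 0.034 (SE), a 1.77-fold greater width, with an adjusted p of 0.00991 (limma, Benjamini-Hochberg over the 2861 regions). The call did not hold with widths centred on the median of each library (limma, adjusted p = 0.157), with the replicate number as a block (0.845), or without shNAT10 replicate 2 (0.0573) or replicate 3 (0.195). The score percentile of the region was 89.6, 80.6 and 81.6 in shControl and 92.7, 84.1 and 77.4 in shNAT10, and these overlapped. A score percentile is the rank of the best peak of a region among all peaks of its own library, from 0 to 100.

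HAUS6 and CDC6 were the next in this direction. HAUS6, a subunit of the augmin complex that nucleates microtubules in the spindle, covered 462, 491 and 459 bases in shControl and 596 in each shNAT10 library. Its 5' edge lay 81, 110 and 78 bases before the RefSeq start in shControl and 215 bases before it in every shNAT10 library. The log2 difference in width was 0.34 ± 0.035 (SE), adjusted p = 0.0830 (limma), and did not pass the threshold of 0.05. CDC6, which loads the replicative helicase at origins, covered 326, 345 and 335 bases in shControl and 458, 458 and 432 in shNAT10, a log2 difference of 0.42 ± 0.038 (SE) with adjusted p = 0.0830 (limma). In both genes every shNAT10 library was wider than every shControl library.

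PHGDH, the first enzyme of serine synthesis, covered 364, 280 and 364 bases in shControl and 406, 446 and 446 in shNAT10. SKIC8, a subunit of the SKI complex that feeds RNA to the exosome, covered 171, 133 and 192 bases in shControl and 233 in each shNAT10 library. COLGALT1, a galactosyltransferase acting on collagen, covered 347, 349 and 347 bases in shControl and 380 in each shNAT10 library. In these genes too the groups were apart, by a margin as small as 31 bases in COLGALT1, and none passed the test, with adjusted p between 0.223 and 0.823 (limma). PIK3R2 encodes a regulatory subunit of PI3K. Its start region covered 152, 109 and 144 bases in shControl and 177, 168 and 177 in shNAT10, with 5' edges from 20 bases upstream to 23 downstream of the start in shControl and 45, 36 and 45 bases upstream in shNAT10. The log2 difference was 0.38 ± 0.14 (SE), adjusted p = 0.823 (limma).

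The opposite shift was seen in other genes. IGDCC4, a cell-surface protein of the immunoglobulin superfamily, covered 280 bases in each shControl library and 178, 155 and 184 in shNAT10, a log2 difference of -0.70 ± 0.071 (SE), adjusted p = 0.0830 (limma). MAU2, a partner of NIPBL in loading cohesin, covered 455 bases in each shControl library and 393, 391 and 395 in shNAT10 (log2 difference -0.21 ± 0.019 (SE), limma adjusted p = 0.0830). PIAS4, a SUMO ligase, covered 142 bases in each shControl library and 109, 93 and 109 in shNAT10 (log2 difference -0.46 ± 0.073 (SE), limma adjusted p = 0.305). In these 3 regions the shControl libraries shared 1 edge and every shNAT10 library began further downstream. ERBB3, the receptor tyrosine kinase that partners ERBB2, had its 5' edge 236, 247 and 247 bases before the start in shControl and 162, 95 and 199 bases before it in shNAT10, with widths of 511, 522 and 522 against 437, 370 and 474 bases (limma, adjusted p = 0.823).

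In the set of 590 regions with a 5' edge that moved within 250 bases of a RefSeq start and a fixed 3' edge, 15 (2.54%) had the edge further upstream in every shNAT10 library and 15 (2.54%) further downstream. The median position of the edge was 60.5, 53.5 and 65.5 bases upstream of the start in shControl 1, 2 and 3 and 51.0, 64.0 and 63.0 in shNAT10 1, 2 and 3. The medians of the groups overlapped, with means of -59.8 ± 6.03 and -59.3 ± 7.23 bases (SD, n = 3 each; two-sided exact permutation test, p = 1, where 3 against 3 cannot give a p under 0.1). This measure was added after the positions had been seen. Its regions were chosen on the same edge positions, without use of the groups. In 401 of the 590 (68.0%) all 6 edges lay upstream of the RefSeq start used. That was the start nearest to the outermost 5' edge of the region, and a gene can have several. The edges were not compared with the 5' end of the gene. A RefSeq window was at hand for 502 starts, and its G and C content had a median of 67.8%, beside 69.0% for 1851 windows at identical regions and 58.7% for all 35116 windows.

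Which edge moved followed the place of the region in the gene. Here a region at a gene start overlapped the RefSeq window from 250 bases before to 50 after a start, and a region at a gene end had its outermost 3' edge within 100 bases of the end of the gene span. These positions chose the regions, so the counts of which edge moved are described with no test. Over all 2861 regions, the 5' edge was fixed and the 3' edge moved in 1284 (44.9%), the 3' edge was fixed and the 5' edge moved in 1118 (39.1%), both moved in 400 (14.0%), and in 59 (2.06%) both outer edges were fixed and a gap inside the region differed. At the 1113 regions at gene starts the moving edge was the 5' one alone in 820 (73.7%). At the 479 regions at gene ends it was the 3' one alone in 347 (72.4%). In the 1180 regions inside genes the 3' edge moved alone in 708 (60.0%) and the 5' edge alone in 265 (22.5%). A further 58 regions reached both the start and the end of a gene and 31 lay outside all of these places. Exons, introns and untranslated regions were not assigned, since no transcript structures were used here.

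Gene ends made up 16.7% of the boundary-shifting regions and 3.14% of the identical regions. Regions inside genes made up 41.2% and 62.4%, and gene starts 38.9% and 33.6%. At the 347 gene ends with a moving 3' edge and a fixed 5' edge, the edge moved over a median of 181 bases. The edge stopped exactly at the last annotated base in 25.6%, 13.3% and 30.0% of these regions in shControl 1, 2 and 3 and in 11.8%, 38.3% and 35.7% in shNAT10. shNAT10 1 and shControl 2 had the lowest shares, and the groups overlapped (23.0 ± 8.68% against 28.6 ± 14.6%, SD, n = 3 each; two-sided exact permutation test, p = 0.6). The regions were chosen on the same edge positions, without use of the groups, so this test speaks for these libraries.

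At 10 gene ends (2.88%) every shNAT10 library reached further downstream than every shControl library, and at 6 (1.73%) less far. The 3 members of each kind with the widest margin are given here, a choice made after their values had been seen. FRS3, an adaptor of fibroblast growth factor receptors, ended 158, 819 and 1072 bases before the gene end in shControl and exactly at it in each shNAT10 library. LZTS3, a leucine zipper protein, ended 385, 162 and 149 bases before it in shControl and at it in each shNAT10 library. ZNF579, a zinc finger protein, ended 143, 700 and 533 bases before it in shControl, and in shNAT10 it ended 119 and 99 bases before it and 4 bases past it. In these genes the outermost 3' edge, which had to lie within 100 bases of the gene end, was a shNAT10 edge. That the shNAT10 peaks ran closer to the annotated end thus followed from the choice and is no result.

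ZDHHC8, a palmitoyltransferase, ended 423 and 56 bases before the gene end and at it in shControl, and 1505, 463 and 463 bases before it in shNAT10. NECTIN2, an adhesion protein, ended 5 bases past the gene end in each shControl library and 55, 34 and 34 bases before it in shNAT10. ATF5, a transcription factor of the stress response, ended 33 and 23 bases before the end and at it in shControl and 96, 67 and 99 bases before it in shNAT10. In these genes the outermost 3' edge was a shControl edge. That the shControl peaks ran closer to the end or past it followed from the choice in the same way. None of the 16 gene ends passed the width test across the 2861 regions (limma).

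The difference between the widest and the narrowest library had a median of 120 bases, with quartiles of 33 and 405, and reached 6687 bases. It was at most 10 bases in 266 regions (9.30%) and over 500 bases in 616 (21.5%). The share of shifting regions rose with width above 250 bases, which is a description with no test. Of the 2119 shared regions with a median covered width of over 150 up to 250 bases, 12.7% had shifting boundaries, against 45.1% of the 1361 from over 500 up to 1000 bases and 81.6% of the 456 over 2000 bases.

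The score, which had no part in the choice, ranked lower in these regions. The median score percentile was 61.3, 68.5 and 66.8 in shControl 1, 2 and 3 and 73.3, 63.0 and 64.0 in shNAT10, where the identical regions had 70.5, 74.9 and 73.4 and 79.8, 71.9 and 72.9. The boundary-shifting regions lay below the identical regions in 6 of 6 libraries, with a mean difference of -7.77 percentile points (two-sided exact sign-flip permutation test over the libraries, p = 0.03125, the smallest that 6 libraries can give). The libraries share the same regions, so this test speaks for these libraries. Width moved with this result and was set apart by classes: the difference between the medians was -20.0 to -10.9 points over the libraries for regions up to 250 bases and -22.0 to -10.9 for those over 1000. In regions of over 250 up to 500 bases it was -16.8 to -10.8 points and in those of over 500 up to 1000 bases -17.2 to -13.0, so that it was larger within the 4 width classes than over all regions. With the 50% of peaks of highest score in each library, the difference shrank to -2.50 points and no longer passed the threshold (exact sign-flip test, p = 0.0625).

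Between the groups, neither width nor rank differed beyond the spread of the libraries. Over the 2861 regions the median covered width was 507, 485 and 532 bases in shControl and 464, 552 and 541 in shNAT10. shNAT10 1 held the lowest value and shNAT10 2 the highest, so the groups overlapped, at 508 ± 23.5 against 519 ± 47.9 bases (SD, n = 3 each; two-sided exact permutation test, p = 0.8). The identical regions were shorter, with a median of 218 bases. The median score percentile was 65.5 ± 3.74 in shControl and 66.7 ± 5.72 in shNAT10 (SD, n = 3 each; exact permutation test, p = 0.8). The mean number of peaks into which a library split a region was 1.05 ± 0.0249 and 1.06 ± 0.0621 (SD, n = 3 each; exact permutation test, p = 1).

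Single libraries accounted for many of the differing edges. In 960 of the 2861 regions (33.6%) 5 libraries listed the same single outline and 1 library another. The odd library was shNAT10 1 in 466 of them (48.5%), shControl 2 in 279, shControl 1 in 103, shControl 3 in 71, shNAT10 3 in 23 and shNAT10 2 in 18. The odd outline was the narrower one in all 466 regions of shNAT10 1, by a median of 33.5 bases, and in 278 of the 279 of shControl 2. These were the libraries with the longest lists: shNAT10 1 held 28752 peaks and shControl 2 held 22619, against 17877 to 20063 in the other 4. shNAT10 1 also split 288 regions into more than 1 peak and shControl 2 split 187, against 48 to 108 elsewhere. The part of list length or depth in the edges was not tested, and the lists hold no counts from which depth could be read. No region had 1 outline in all 3 shControl libraries and another in all 3 shNAT10 libraries, while 545 (19.0%) had 6 different outlines.

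The overlap of covered bases gave the same picture. The mean Jaccard index, the bases covered by both libraries of a pair over the bases covered by either, was 0.942 for shNAT10 2 and shNAT10 3, the most alike, and 0.793 for shControl 2 and shNAT10 1, the least alike. Pairs within a group averaged 0.852 and pairs between groups 0.853, a difference of -0.000374 (one-sided exact permutation test, p = 0.4).

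Across single regions, all 3 shNAT10 libraries were wider than all 3 shControl libraries in 84 (2.94%) and narrower in 54 (1.89%), and apart from KMT5A none passed the test. An unadjusted p under 0.05 was reached by 77 regions (2.69%) in the same limma fit. For the score percentile, fitted over all 9195 shared regions, limma called 0 (0%), and 185 boundary-shifting regions (6.47%) had an unadjusted p under 0.05, beside 622 (6.76%) of all shared regions. Every shNAT10 library ranked higher in 156 boundary-shifting regions (5.45%) and lower in 134 (4.68%), where the shares over all shared regions were 6.98% and 4.05%. Both shares lay near those over all shared regions.

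**Figure D1:**
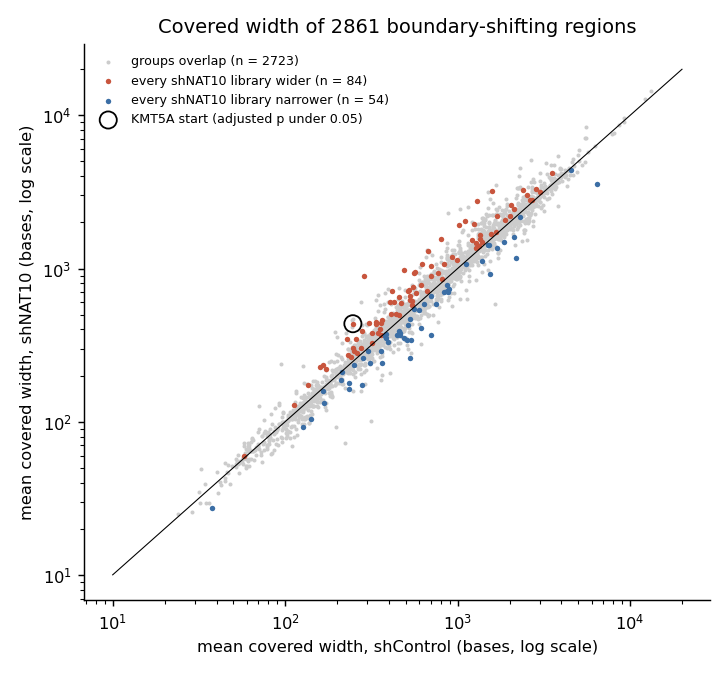
Mean covered width in the 3 shNAT10 libraries (y axis) against that in the 3 shControl libraries (x axis), in bases on log scales, for the 2861 regions. Red points, 84, were wider in every shNAT10 library and blue points, 54, narrower; the ring marks the KMT5A start, and the line is equality.

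Beside KMT5A, which was named for its adjusted p, the regions wider in every shNAT10 library by the widest margin in bases lay inside genes. GNB1L, a WD-repeat protein, covered 1588, 1539 and 1626 bases in shControl and 2398, 3594 and 3675 in shNAT10 (chr22:19785286-19788960, minus strand). ESS2, a protein that joins the late spliceosome, covered 2295, 2337 and 2504 bases in shControl and 3338, 3185 and 3245 in shNAT10. TECPR2, an autophagy factor, covered 1217, 873 and 1227 bases and then 1840, 2187 and 2118. The 3' edges of these regions moved over 2087, 1328 and 1314 bases, and every shNAT10 library reached further there. The smallest adjusted p among them was 0.0830, for ESS2, with a log2 difference of 0.45 ± 0.046 (SE, limma). LMLN, a metallopeptidase, was covered by 1 peak of 1063, 969 and 1023 bases in shControl and by 3, 2 and 2 peaks of 1644, 2166 and 1990 bases in all in shNAT10. Measured by the longest peak alone it had a log2 difference of -0.06, so its greater width came from the added peaks. PHLDA3, a repressor of AKT and target of p53, covered 98, 354 and 408 bases in shControl and 685, 1001 and 1001 in shNAT10, with a log2 difference of 1.87 ± 0.62 (SE) and adjusted p = 0.823 (limma).

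Narrower in every shNAT10 library were IGFN1, RIMBP3, ERCC2, UBN1, ST3GAL2 and the start of NPTN. UBN1, a subunit of the HIRA histone chaperone complex, covered 1597, 1729 and 1729 bases in shControl and 1365 in each shNAT10 library (chr16:4846665-4848393, plus strand), a log2 difference of -0.30 ± 0.043 (SE), adjusted p = 0.223 (limma). NPTN, the adhesion protein neuroplastin, covered 528, 557 and 515 bases at its start in shControl and 353, 294 and 384 in shNAT10 (log2 difference -0.64 ± 0.11 (SE), limma adjusted p = 0.354). ERCC2, a helicase of TFIIH, covered 1855, 1861 and 1885 bases at its end in shControl and 1268, 1604 and 1604 in shNAT10. In IGFN1, a muscle protein, shNAT10 2 stood apart, with 713 bases against 4776 to 7020 in the other 5 libraries.

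By score percentile, ZNF414, a zinc finger protein, ranked at 43.6, 4.6 and 6.1 in shControl and 68.6, 94.0 and 93.2 in shNAT10, a difference of 67.2 ± 13.1 points (SE, limma, adjusted p = 0.551). PRKAA2, a catalytic subunit of the energy sensor AMPK, ranked at 1.2, 11.3 and 14.9 and then at 49.6, 44.4 and 42.6. DIAPH3, an actin nucleator, ranked at 8.7, 2.6 and 11.6 at its start and then at 72.2, 35.3 and 49.3. In the other direction, NUPR1, a stress-induced chromatin protein, ranked at 63.2, 76.3 and 69.4 in shControl and 24.7, 14.3 and 25.0 in shNAT10, a difference of -48.3 ± 10.2 points (SE, limma, adjusted p = 0.551). CGNL1, a protein of cell junctions, ranked at 77.5, 61.9 and 64.0 and then at 25.5, 27.2 and 29.8. The groups were apart in all of these, with no adjusted p under 0.551 (limma). Of the 84 wider regions 4 ranked higher and 3 lower in every shNAT10 library, and of the 54 narrower ones 2 and 2, where the shares over the 2861 regions were 5.45% higher and 4.68% lower.

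The widest region, which was also the most divided, was in EPPK1. EPPK1, a giant cytoskeletal linker, spanned chr8:143857981-143873298 on the minus strand and was split into 5, 9 and 4 peaks in shControl and 5, 2 and 2 in shNAT10. Together these covered 11944, 12866 and 14993 bases and then 12925, 15247 and 15230, and the groups overlapped. A region in no gene, chr14:103701201-103710512 on the plus strand, came next in division, with 1, 3 and 2 peaks in shControl and 6, 2 and 2 in shNAT10. ZNF469, a zinc finger protein linked with corneal collagen, covered 12099, 11348 and 13056 bases in shControl and 11751, 13279 and 13279 in shNAT10. HIPK2, a kinase of the p53 response, covered 1375, 3193 and 3422 bases and then 3996, 7991 and 3419. In HIPK2 shNAT10 2 stood apart and the groups overlapped. CLEC16A, a regulator of mitophagy, held the most boundary-shifting regions of any gene, 5 of its 5 shared regions, ahead of BRF1 with 4 of 5, PML with 4 of 6 and TRIOBP with 4 of 10.

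Regions whose best peak had a score of 3100 or more in every library could still shift. ARF6, a GTPase of membrane traffic, covered 3799, 1324 and 1939 bases at its end in shControl and 2750, 3722 and 1939 in shNAT10. KIF1C, a kinesin motor, covered 1478, 1524 and 3177 bases and then 1375, 2078 and 2078. MUC5AC, a gel-forming mucin, covered 7803, 9897 and 9952 bases and then 8837, 10152 and 9939. The groups overlapped in all of these.

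Pathway lists were read beside the share over all shared regions, 31.1%. In the PI3K, AKT and mTOR list 15 of 37 shared regions (40.5%), in 11 genes, had shifting boundaries, with a median width range of 323 bases against 120 over all. None passed the width test (limma), 2 were wider in every shNAT10 library, the PIK3R2 start and the start of FOXO1, and none was narrower in every one, where the shares over the 2861 regions were 2.94% and 1.89%. By score percentile 1 ranked higher and 1 lower in every shNAT10 library, where the shares over the 2861 regions were 5.45% and 4.68%. FOXO1, a transcription factor that AKT excludes from the nucleus, covered 627, 462 and 605 bases in shControl and 810, 1015 and 1015 in shNAT10, a log2 difference of 0.75 ± 0.16 (SE), adjusted p = 0.664 (limma). Its score percentiles were low, at 29.3, 7.5 and 16.6 and then 5.8, 25.7 and 4.6. In some other genes of the list 1 or 2 libraries departed from the rest. IRS1, the adaptor of the insulin receptor, covered 4771 bases in 4 libraries, 4568 in shControl 2 and 4402 in shNAT10 1. RHEB, the GTPase that activates mTOR, covered 465 bases in 5 libraries and 460 in shNAT10 1. In PHLPP1, a phosphatase of AKT, more libraries departed, with 1043, 931 and 1810 bases in shControl and 1791, 1810 and 1810 in shNAT10.

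In the list of ERBB receptors and RAS-ERK signalling 7 of 32 shared regions (21.9%) shifted, and ERBB3 was the 1 that was narrower in every shNAT10 library, where 1.89% of the 2861 regions were. MAPK3, the kinase ERK, kept both outer edges and covered 1145 bases in 5 libraries and 855, in 2 peaks, in shNAT10 1. In the WNT and colorectal cancer list 16 of 57 (28.1%) shifted, with no region apart between the groups in width. By score percentile 1 of these ranked lower in every shNAT10 library and none higher, where 4.68% and 5.45% of the 2861 regions did. AMER1, a scaffold of the beta-catenin destruction complex, covered 1631, 2265 and 2948 bases in shControl and 2353, 4602 and 5160 in shNAT10, which overlapped. APC2, a relative of APC, covered 4137, 4421 and 7892 bases and then 5396, 8090 and 7918. SOX9, a transcription factor of intestinal progenitors, covered 2878, 2053 and 2857 bases at its end and then 2849, 2878 and 2318.

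Shares were lower in the list of chromatin regulators with long coding exons, at 20 of 162 (12.3%), in giant cytoskeletal and adhesion proteins, at 15 of 107 (14.0%), in splicing factors, at 6 of 38 (15.8%), and in translation factors, at 3 of 42 (7.14%). CREBBP, an acetyltransferase of histones, covered 3040, 2135 and 2302 bases in shControl and 2210, 2407 and 2372 in shNAT10, with every library at or above the percentile of 92.7. TET3, a dioxygenase of methylated DNA, had shifting edges in 3 of its 3 shared regions, and the one with the widest difference covered 3953, 1758 and 2926 bases and then 2056, 3703 and 3703. MACF1, a linker of actin and microtubules, covered 4975 bases in 4 libraries, 4879 in shControl 2 and 2864 in shNAT10 1. Among translation factors, PABPC1, the cytoplasmic poly(A)-binding protein, covered 1177, 819 and 1096 bases at its start in shControl and 841, 900 and 886 in shNAT10. PNN, a splicing-associated protein, covered 1566, 1441 and 1440 bases and then 1432, 1634 and 1687. In these genes the groups overlapped in width, and none of the lists held a region that passed the width test (limma). By score percentile 4 of the 15 regions of the cytoskeletal list ranked higher and 2 lower in every shNAT10 library. Over the 2861 regions these shares were 5.45% and 4.68%. None did so in the chromatin, splicing and translation lists, and the percentile fit called none of these regions. None of 78 ribosomal protein genes had a shared region. The 7 shared regions in a list of NAT10, its partner THUMPD1 and genes of snoRNP and other nucleolar proteins were all identical. Of 10 genes taken from the study's overlap of its sequencing data, 1, EPB41L1, had shared regions, 7 in number and all identical, and the other 9 had none. The lists counted only regions in a single gene, and a shared region needs overlapping peaks from every library. Lack of a shared region is not lack of peaks: ABI2 and RAC2 had peaks in every library. ERRFI1 had 0, 1 and 1 peaks in shControl and 1 in each shNAT10 library. Of 13 shared regions in epithelial markers 4 shifted. In EPCAM, HNF4A and CLDN3 shNAT10 1 alone differed in width, at 416 against 434, 547 against 622 and 1169 against 1274 bases. CDX2 covered 963 bases at its start in each shControl library and in shNAT10 1, and 981 and 1113 in shNAT10 2 and 3.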

How the data were processed

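acRIP-seq was done on SW620 cells, with 3 shControl and 3 shNAT10 immunoprecipitation libraries grouped from the sample titles. The authors deposited 1 list of mRNA peaks per library, with peak positions and a score. Peak names follow MACS, and the caller's version and settings and the aligner are not given in the sources used here. The submitters' notes name build GRCh38. The deposited score runs from 50 to 3233.06 with many peaks at 3100, which loses differences among the highest peaks, and it has no stated unit. It was therefore used as a rank within a library, with ties at their mean rank. Without counts in the lists, depth is unknown, and values that need it were not given.

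Peaks overlapping by 1 base or more on a strand were merged. Genes and places came from RefSeq tables of GRCh38.p14, by the midpoint of a region. Of 20052 protein-coding genes 15842 had a strand there, and the others, which held 466 boundary-shifting regions, were matched on either strand. Single values per library were compared by exact permutation tests over the 6 libraries. Log2 covered width, for the boundary-shifting regions, and score percentile, for all shared regions, were fitted with limma 3.58.1 (lmFit, eBayes with trend) in R 4.3.3, with Benjamini-Hochberg adjustment and a threshold of 0.05. The width fit was tested on simulated data, and the percentile fit was not. Other steps ran in numpy 2.4.6, pandas 2.3.3, scipy 1.17.1 and matplotlib 3.10.9 under Python 3.11.15.

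Named regions were, per direction, those past the threshold, filled to 6 with regions whose groups did not overlap by the widest margin, then the widest, most variable, most divided and highest-scored regions and, per gene list, the 2 with the widest difference. Some are given as counts. The regions and lists were chosen with earlier results of these data known. Alternatives were the 50% of peaks of highest score, an equal number of peaks per library, merging without strand or at 50 bases of overlap, other measures of width and rank, a block on the replicate number, and leaving out each library in turn.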

Additional observations from a re-analysis of the deposited data

How the results depend on the processing

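The number of boundary-shifting regions was 2861 and between 2349 and 2876 under the other mergings and with equal numbers of peaks, but 1219 with the 50% of peaks of highest score. With these peaks the difference in median width was -4.67 bases in place of 11, that in median percentile 5.09 points in place of 1.21, that in peaks per region -0.00383 and the difference in score percentile from identical regions -2.50 points. With equal numbers of peaks the difference in peaks per region was -0.0111 and that in median percentile -0.272. At an overlap of 50 bases the Jaccard difference was 8.4e-05. The cause was not tested. Leaving out 1 library at a time gave -5.5 to 38.5 bases for width, -2.08 to 3.11 points for percentile, -0.0327 to 0.0222 for peaks per region, -0.00781 to 0.00800 for the Jaccard difference and -8.04 to -7.48 points for the difference from identical regions, whose p of 0.0625 is the smallest that 5 libraries allow. Without shNAT10 1 the width difference was 38.5 bases and the percentile difference -2.08 points.

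The width fit called 1 region, and 4 with the 50% of highest peaks, 3 with equal numbers, 3 at 50 bases of overlap, 6 from the outermost start to the outermost end, 4 by the longest peak, 2 among regions with 1 peak in every library and 0 with widths centred on the library median. Leaving out 1 library gave 0 to 25 calls, with 25 without shNAT10 1, of which 17 were wider and 8 narrower in shNAT10, and 0 without shNAT10 3. GNB1L, LMLN and UBN1 passed the test from outermost start to outermost end, and GNB1L, LMLN and ERCC2 without shNAT10 1, all in the direction given. LMLN reversed, to -0.0591 on the log2 scale, by its longest peak, and its difference was 0.00697 at an overlap of 50 bases (limma, adjusted p = 0.998). The percentile fit called 0 boundary-shifting regions under every alternative run, and calls among identical regions were not counted there. Blocking on the replicate number, the width fit called 0 regions, and same-numbered libraries did not deviate together, with correlations of 0.061, -0.069 and 0.104 for width and 0.009, -0.065 and 0.067 for percentile. The number of libraries and the unknown depth limit what these lists can show, and equal score at 3100 hides differences in rank among the highest peaks.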
